A study of Homo sapiens with 12 samples.

Results

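Interferon-stimulated genes are the genes a cell switches on when interferon binds its receptors, and 41 of them were followed here in U87, an established line of human glioma cells, through depletion of BCL3 and treatment with temozolomide (TMZ). The members were chosen by gene symbol from general knowledge of the interferon response, with earlier results of these data known. Each was represented by its brightest detected probe. A probe was called detected where 3 or more of the 12 arrays gave a detection p-value below 0.01. Of the 41 genes, 40 had at least 1 named probe and 34 had a probe that was detected, so 34 of the 10686 genes tested are members. U87 cells received control siRNA (siCtrl) or siRNA against BCL3 (siBCL3) and were then exposed for 24 h to 100 µM TMZ, the DNA-alkylating drug of standard glioblastoma therapy, or to DMSO, its solvent. Each of the 4 combinations, siCtrl/DMSO, siCtrl/TMZ, siBCL3/DMSO and siBCL3/TMZ, was measured on 3 Illumina bead arrays. All groups come from 1 cell line grown in the same serum-containing medium and all carry a transfected siRNA, and untransfected cells were not analysed here. The labels do not say whether the replicates were separate cultures, so the p-values measure the spread between these arrays, which may be technical.

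In cells that meet interferon, receptor-bound Janus kinases phosphorylate STAT proteins, among them STAT2, which join IRF9 to form the factor ISGF3. ISGF3 binds the interferon-stimulated response element (ISRE) in the promoters of these genes, whose products block virus entry, degrade viral RNA, tag proteins with ISG15 and feed back on the signal. BCL3 is an I-kappa-B family protein of the nucleus, where it binds NF-kB subunits at promoters.

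To show which response elements the measured members carry, promoters of 300 bases (250 before to 50 after the annotated start) were taken from RefSeq, build GRCh38.p14, for the 33 members listed there. The ISRE core was searched as GAAANNGAAA on both strands. It occurred in 22 of the 33 members (66.7%), against 4.38% of the 27305 genes in the table. Of the members that fell with BCL3 siRNA in at least 1 comparison below, 12 had a promoter in the table and 8 of these held the core; of the tested members that fell in neither, 10 of 15 held it. OASL, IFITM2, USP18 and TRIM22 were the fallen members with no promoter there. The windows below are from members that fell. They are written 5′ to 3′ on the strand of the gene, with the matched core, or overlapping cores, in capitals; where the match lies on the opposite strand the capitals read TTTCNNTTTC. The IFI44L promoter held the same 30 bases at 2 places, the second at chr1:78620365-78620394.
ISG15 (chr1:1013377-1013406, plus strand): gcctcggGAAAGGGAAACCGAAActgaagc
OAS3 (chr12:112938321-112938350, plus strand): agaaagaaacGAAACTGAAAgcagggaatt
OAS3 (chr12:112938452-112938481, plus strand): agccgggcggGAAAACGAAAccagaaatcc
IFIT1 (chr10:89392510-89392539, plus strand): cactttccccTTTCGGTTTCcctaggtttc
IFIT3 (chr10:89327865-89327894, plus strand): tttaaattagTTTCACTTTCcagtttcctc
HERC5 (chr4:88457035-88457064, plus strand): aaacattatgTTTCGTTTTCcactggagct
IFI44 (chr1:78649761-78649790, plus strand): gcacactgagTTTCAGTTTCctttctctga
IFI44L (chr1:78620274-78620303, plus strand): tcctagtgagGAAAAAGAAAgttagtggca
PARP9 (chr3:122564322-122564351, minus strand): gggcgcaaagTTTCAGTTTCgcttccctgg
For comparison, these windows are from members that passed the test in neither siRNA comparison:
DDX60 (chr4:168318786-168318815, minus strand): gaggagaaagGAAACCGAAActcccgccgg
ISG20 (chr15:88638937-88638966, plus strand): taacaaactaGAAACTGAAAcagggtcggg
IFI6 (chr1:27672288-27672317, minus strand): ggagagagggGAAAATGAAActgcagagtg

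An NF-kB pattern, GGGNNNTTCC on both strands, was found in 1 of the 12 fallen members (8.33%), in 3 of the 15 tested members that fell in neither (20%), and in 7.83% of all genes in the table. The fallen member was OAS3, in the window that follows, where the capitals mark 2 matches that overlap on opposite strands and lie next to the first ISRE core.
OAS3 (chr12:112938335-112938363, plus strand): ctgaaagcaGGGAATTTCCCaagtttggg
The pattern TTCNNNGAA, the core of the gamma-activated site bound by pairs of STAT proteins, which reads the same on both strands, occurred in 12 of 33 members (36.4%) and in 9.38% of all genes. These matches are matches of letters only; binding was not measured.

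The siRNA target was lower in the arrays labelled for it. BCL3 read 7.47, 7.39 and 7.25 in siCtrl/DMSO, 7.26, 7.28 and 7.36 in siCtrl/TMZ, 6.41, 6.28 and 6.46 in siBCL3/DMSO and 6.57, 6.52 and 6.54 in siBCL3/TMZ on the log2 intensity scale, with replicates 1 to 3 in that order here and in all such lists. The difference between siBCL3 and siCtrl was -0.98 (SE 0.07) under DMSO (adjusted p = 3.04e-07) and -0.76 (SE 0.07) under TMZ (adjusted p = 3.10e-06); adjusted p-values are from limma with Benjamini-Hochberg adjustment over all genes tested, and a gene under 0.05 is said to have risen or fallen. Between 16381 and 17839 of 47320 probes were detected per array. Of the glioma and mesenchymal markers VIM, CD44, SPARC, NES, TNC, FN1 and CHI3L1 were detected, while the astrocyte markers GFAP and S100B were detected on 0 arrays. PTPRC, the general leukocyte marker, was on 0 arrays too; 3 of the 8 leukocyte markers listed were detected (LYZ, CD14 and AIF1), as were 0 of 3 endothelial and 1 of 3 epithelial markers (EPCAM). Some of these markers moved with BCL3 siRNA: of the 7 glioma markers SPARC rose (0.71, SE 0.06 under DMSO and 0.80, SE 0.06 under TMZ), while CD44 (-0.65, SE 0.05 and -0.62, SE 0.05), NES (-0.49, SE 0.09 and -0.57, SE 0.09) and VIM (-0.28, SE 0.06 and -0.20, SE 0.06) fell, LYZ rose under DMSO (0.46, SE 0.12, adjusted p = 0.00762) and was -0.18 (SE 0.12) under TMZ, and EPCAM fell under TMZ (-0.52, SE 0.11, adjusted p = 0.0031) and was -0.11 (SE 0.11) under DMSO. Their part in the members' values was not tested. In RNA pooled over many cells, fewer expressing cells and less RNA per cell cannot be told apart. Within their groups, siBCL3/DMSO replicate 1 gave the lowest of the 3 values for 19 of the 34 members, siBCL3/TMZ replicate 1 for 18, and siBCL3/DMSO replicate 2 the highest for 18.

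A set of interferon-stimulated genes was lower with BCL3 siRNA, both without and with TMZ. Under DMSO 11 of the 34 members fell and 1 rose, where 20.1% of all genes tested fell and 20.7% rose. Under TMZ 16 of 34 fell and 0 rose, where 20.2% of all genes fell and 18.6% rose. There 1 member was higher and 16 lower at an unadjusted limma p under 0.05, beside 2458 higher and 2569 lower of all 10686 genes. The median log2 difference of the members was -0.14 under DMSO and -0.14 under TMZ, beside 0.013 and -0.0010 over all genes. The same 11 members fell in both comparisons: IFI44L, USP18, IFIT3, SAMD9L, ISG15, IRF9, SP110, TRIM22, OAS3, IFI35 and IFI44. The comparisons use separate arrays but share an estimate of the spread. In each of the 11 members the 3 siBCL3 arrays lay below the 3 siCtrl arrays under both treatments. The tests on these same arrays picked the 11, so that order adds no further support. The shares of all genes that fell in both, or that lay without overlap, were not counted, so the 11 cannot be compared with all genes. USP18 passed the detection rule through the siCtrl arrays, on which it is higher, so its fall is a description only; the other 10 were detected on all 12 arrays. With genes limited to those detected on all 12 arrays, 29 members were tested, of which 12 fell and 1 rose under DMSO and 15 fell and 1 rose under TMZ. Of all 9204 genes kept in this way, 2064 fell and 2255 rose under DMSO, and 2075 fell and 2029 rose under TMZ. Another 5 fell under TMZ (OASL, IFIT1, IFITM2, HERC5 and PARP9), and whether their change differed from that under DMSO is tested by the interaction given further on. Averaged over both treatments 18 members fell and 1 rose, beside 26.7% and 27.2% of all genes. HERC6 and BST2 were called only there. BST2 passed the detection rule mainly through the siCtrl arrays, so its fall too is a description only.

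The counts under DMSO depend on how the arrays were scaled. With each array scaled to the median of its detected probes, in place of quantile normalization, 3140 genes rose and 1673 fell under DMSO. There 9 members fell and 2 rose. The median of all genes moved from 0.013 to 0.093 and that of the members from -0.14 to -0.035. The member median thus stayed below that of all genes. With the median taken over all probes, the median of all genes moved to -0.26, 244 genes rose and 4758 fell, and 21 members fell and 0 rose, with a member median of -0.39. Under TMZ these scalings gave 16 and 13 fallen members, where 1916 and 1578 of all 10686 genes fell. In the latter the calls of IFIT1 (0.211), IFITM2 (0.0882) and IFI44 (0.145) were lost. With mean raw intensity as a covariate 8 members fell under DMSO, beside 1282 of all 10686 genes. Demanding a change of at least 1.2-fold left 2 of 34 members fallen under DMSO and 5 under TMZ. Of all 10686 genes 526 and 581 fell by that rule, so the member share under DMSO was near that of all genes.

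**Figure D1:**
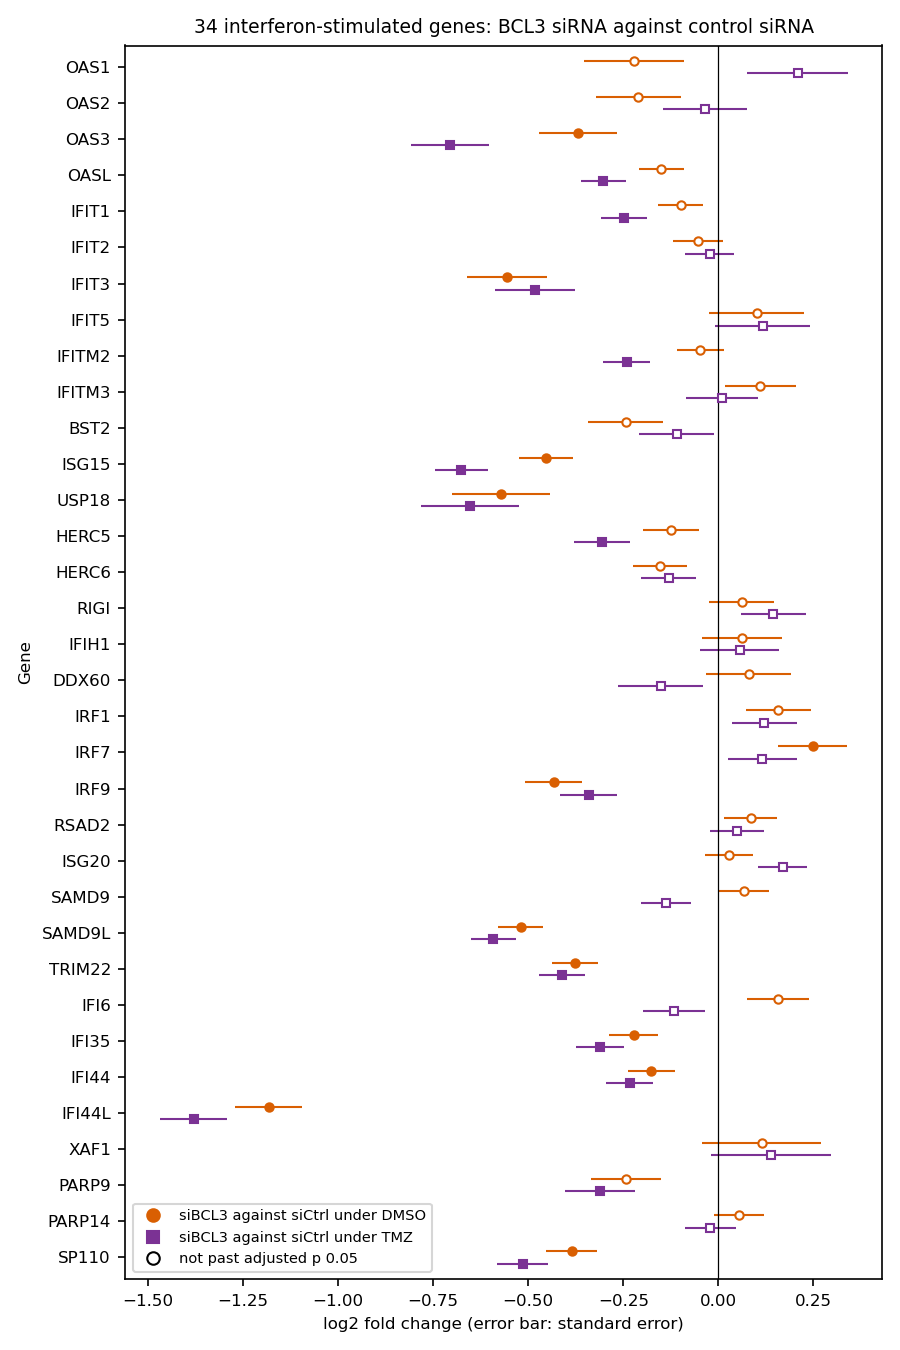
Log2 fold changes of the 34 tested members between siBCL3 and siCtrl, under DMSO (circles) and under TMZ (squares), each with its standard error from limma (3 arrays per group); filled symbols passed an adjusted p of 0.05. IFI44L lies furthest from 0, at -1.18 and -1.38, while the RNA sensors RIGI, IFIH1 and DDX60 lie near 0.

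Of the 4 members of the ISG15 system, 2 were lower past the threshold under DMSO, 3 under TMZ and 4 averaged over treatments. Of all genes 20.1%, 20.2% and 26.7% fell in these comparisons. USP18 is in each of the member counts and passed detection through the siCtrl arrays, so these counts are a description only. Besides USP18, ISG15 was lower under DMSO, and ISG15 and HERC5 under TMZ. UBE2L6, the enzyme that hands ISG15 to its ligases, is no member and was picked out after its values were seen; it differed by -0.06 (SE 0.06) and -0.11 (SE 0.06) and passed neither test. ISG15 is a small ubiquitin-like protein that is attached to other proteins and also secreted. Its level was 9.52, 9.54 and 9.66 in siCtrl/DMSO, 9.85, 9.81 and 9.87 in siCtrl/TMZ, 9.06, 9.25 and 9.04 in siBCL3/DMSO and 9.09, 9.25 and 9.17 in siBCL3/TMZ. All siBCL3 arrays lay below all siCtrl arrays, by -0.45 (SE 0.07) under DMSO (adjusted p = 0.0002482) and -0.68 (SE 0.07) under TMZ (adjusted p = 1.03e-05). USP18, the protease that removes ISG15 and also damps the interferon receptor, was near the detection limit and read 5.11, 5.13 and 5.08 in siCtrl/DMSO, 5.38, 5.48 and 5.35 in siCtrl/TMZ, 4.27, 4.80 and 4.53 in siBCL3/DMSO and 5.04, 4.64 and 4.57 in siBCL3/TMZ. It was detected on 3 of 3 arrays of each siCtrl group and on 1 of 3 of each siBCL3 group, with log2 differences of -0.57 (SE 0.13) and -0.65 (SE 0.13) (adjusted p = 0.00345 and 0.00148), the first of which was 0.0925 with median scaling. HERC5, the main ligase that attaches ISG15 in human cells, read 8.16, 8.19 and 8.03 in siCtrl/DMSO, 8.52, 8.60 and 8.48 in siCtrl/TMZ, 7.99, 8.15 and 7.87 in siBCL3/DMSO and 8.22, 8.22 and 8.23 in siBCL3/TMZ. The siBCL3 arrays overlapped the siCtrl arrays under DMSO (-0.12, SE 0.07, adjusted p = 0.2) and lay below them under TMZ (-0.31, SE 0.07, adjusted p = 0.00568). HERC6, its close relative and the corresponding ligase of mice, read 6.53, 6.31 and 6.39 in siCtrl/DMSO, 6.38, 6.49 and 6.40 in siCtrl/TMZ, 6.17, 6.34 and 6.26 in siBCL3/DMSO and 6.27, 6.37 and 6.23 in siBCL3/TMZ. It passed the test only when averaged over treatments (-0.14, SE 0.05, adjusted p = 0.0297). That call did not hold without any 1 of siCtrl/DMSO replicate 1 (0.0757), siCtrl/TMZ replicate 2 (0.0738), siBCL3/DMSO replicate 1 (0.0715) or siBCL3/TMZ replicate 1 (0.0565) or 3 (0.0669), nor with mean raw intensity as a covariate (0.0503).

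Among the transcription factors, IRF9 fell in both comparisons, IRF7 rose in 1 and IRF1 passed neither. IRF9 is the DNA-binding subunit of ISGF3. Its level was 8.18, 8.12 and 8.11 in siCtrl/DMSO, 8.23, 8.20 and 8.03 in siCtrl/TMZ, 7.80, 7.56 and 7.75 in siBCL3/DMSO and 7.75, 7.81 and 7.87 in siBCL3/TMZ. The siBCL3 arrays were lower with log2 differences of -0.43 (SE 0.08) under DMSO and -0.34 (SE 0.08) under TMZ (adjusted p = 0.0005716 and 0.0031), without overlap. IRF7, which drives the amplification of interferon-alpha genes, read 5.39, 5.65 and 5.60 in siCtrl/DMSO, 5.85, 5.65 and 5.69 in siCtrl/TMZ, 5.77, 5.74 and 5.87 in siBCL3/DMSO and 5.71, 5.83 and 6.01 in siBCL3/TMZ. It was the 1 member that rose under DMSO (0.25, SE 0.09, adjusted p = 0.0438), it was not called under TMZ (0.11, SE 0.09), and its DMSO difference was -0.04 when arrays were scaled to the median of all probes. The IRF7 call was lost under 16 of 29 alternatives and turned sign under 1 more; among the losses were the fits without siCtrl/DMSO replicate 1 (0.182) or 3 (0.0563), without any 1 siBCL3/DMSO array (0.0709, 0.0576 and 0.134), and without siCtrl/TMZ replicate 3 (0.054) or siBCL3/TMZ replicate 2 (0.0526). IRF1, an activator that answers interferon-gamma most strongly, differed by 0.16 (SE 0.09) and 0.12 (SE 0.09) and passed neither test. STAT2, the fourth factor listed, had no named probe and was not analysed here.

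In the OAS family, whose enzymes make oligoadenylates from ATP on meeting double-stranded RNA, OAS3 fell in both comparisons and OASL in 1. OAS3 read 5.72, 5.62 and 5.71 in siCtrl/DMSO, 5.89, 5.80 and 5.70 in siCtrl/TMZ, 5.16, 5.47 and 5.31 in siBCL3/DMSO and 4.99, 4.95 and 5.33 in siBCL3/TMZ. Its difference was -0.37 (SE 0.10) under DMSO (adjusted p = 0.0115, or 0.0502 with median scaling and 0.0557 with mean raw intensity as a covariate) and -0.71 (SE 0.10) under TMZ (adjusted p = 0.0001494). OASL, which lacks the enzyme activity in humans and enhances RIG-I signalling, read 8.51, 8.43 and 8.47 in siCtrl/DMSO, 8.53, 8.54 and 8.53 in siCtrl/TMZ, 8.22, 8.41 and 8.34 in siBCL3/DMSO and 8.19, 8.25 and 8.25 in siBCL3/TMZ. The siBCL3 arrays lay below the siCtrl arrays in both settings, and the test passed under TMZ (-0.30, SE 0.06, adjusted p = 0.00131) and not under DMSO (-0.15, SE 0.06, 0.0572). OAS1 and OAS2 did not pass: OAS1 was -0.22 (SE 0.13) under DMSO and 0.21 (SE 0.13) under TMZ, and OAS2 -0.21 (SE 0.11) and -0.04 (SE 0.11). OAS1 was detected on 1 of 3 siBCL3/DMSO arrays and on 3 of 3 in each other group.

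The IFIT proteins bind RNA that carries foreign 5′ ends. IFIT3, which stabilises the IFIT1 complex, read 8.99, 9.13 and 9.12 in siCtrl/DMSO, 9.11, 9.21 and 9.32 in siCtrl/TMZ, 8.44, 8.55 and 8.58 in siBCL3/DMSO and 8.50, 9.01 and 8.69 in siBCL3/TMZ. It fell, with log2 differences of -0.56 (SE 0.11) and -0.48 (SE 0.11) (adjusted p = 0.00112 and 0.00301), the first being 0.0649 with mean raw intensity as a covariate. The arrays of the siRNA groups did not overlap within either treatment, and replicate 2 was the highest siBCL3/TMZ array. IFIT1, which binds RNA caps that lack methylation, read 9.32, 9.34 and 9.23 in siCtrl/DMSO, 9.51, 9.45 and 9.39 in siCtrl/TMZ, 9.17, 9.18 and 9.23 in siBCL3/DMSO and 9.18, 9.15 and 9.28 in siBCL3/TMZ. It fell under TMZ (-0.25, SE 0.06, adjusted p = 0.00533) but not when its 2 detected probes were averaged (0.118), and under DMSO it differed by -0.10 (SE 0.06). IFIT2 (-0.05, SE 0.07 and -0.02, SE 0.07) and IFIT5 (0.10, SE 0.13 and 0.12, SE 0.13) passed neither test.

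Of the other antiviral effectors, SAMD9L and TRIM22 fell, while SAMD9, RSAD2 and ISG20 did not pass the test. SAMD9L, a large cytoplasmic restriction factor that limits translation and cell growth, read 7.37, 7.28 and 7.42 in siCtrl/DMSO, 7.45, 7.49 and 7.49 in siCtrl/TMZ, 6.81, 6.82 and 6.88 in siBCL3/DMSO and 6.82, 6.96 and 6.87 in siBCL3/TMZ. All siBCL3 arrays lay at or below 6.96 and all siCtrl arrays at or above 7.28, with differences of -0.52 (SE 0.06) and -0.59 (SE 0.06) (adjusted p = 1.91e-05 and 6.46e-06). Its neighbour and paralog SAMD9 differed by 0.07 (SE 0.07) and -0.14 (SE 0.07) and passed neither. TRIM22, a ubiquitin ligase that restricts several viruses, read 7.47, 7.53 and 7.39 in siCtrl/DMSO, 8.00, 8.07 and 8.04 in siCtrl/TMZ, 7.14, 7.10 and 7.02 in siBCL3/DMSO and 7.55, 7.69 and 7.63 in siBCL3/TMZ. It was lower with siBCL3 with log2 differences of -0.38 (SE 0.06) under DMSO and -0.41 (SE 0.06) under TMZ (adjusted p = 0.0003183 and 0.0001646). RSAD2, or viperin, which makes a chain-terminating nucleotide, differed by 0.08 (SE 0.07) and 0.05 (SE 0.07), and the exonuclease ISG20 by 0.03 (SE 0.06) and 0.17 (SE 0.06) (adjusted p = 0.051 under TMZ). When arrays were scaled to the median of all probes, ISG20 under DMSO was -0.32 with an adjusted p of 0.0338.

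**Figure D2:**
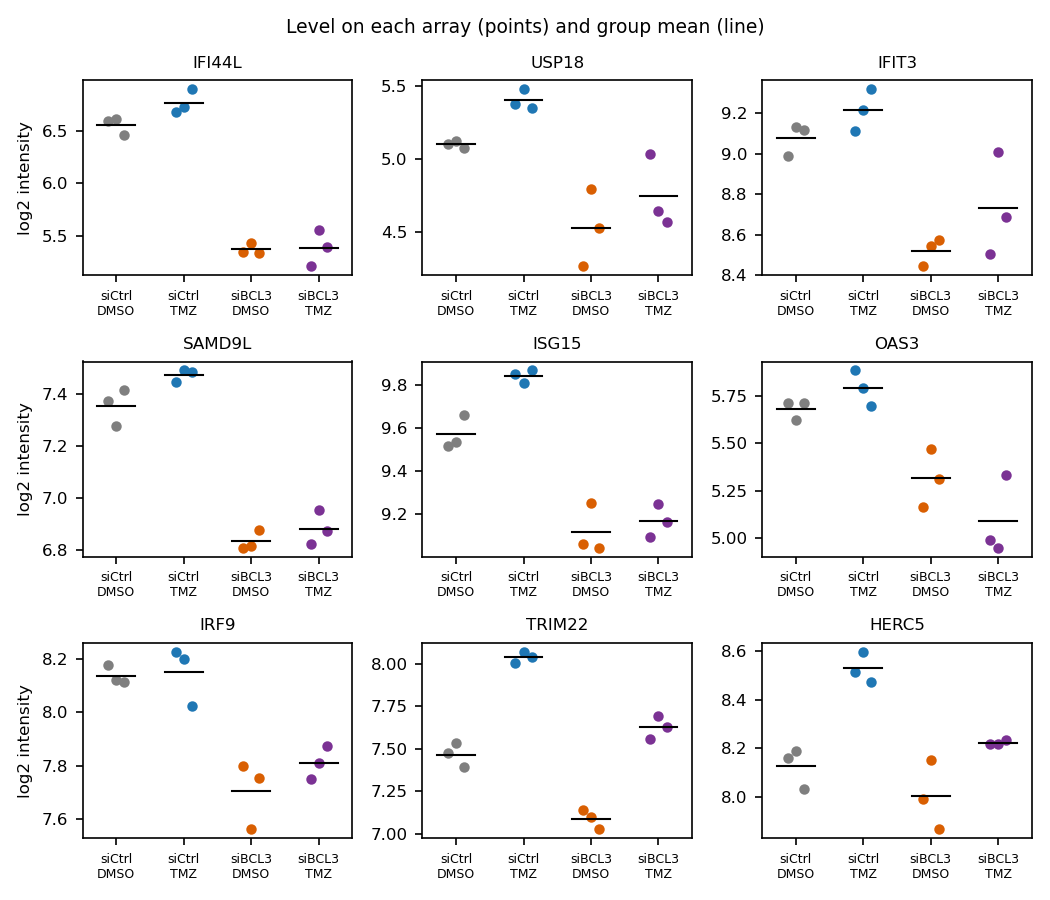
Log2 intensity of 9 members on each of the 12 arrays (points, 3 per group) with the group mean (line); each panel has its own vertical scale, which does not start at 0. IFI44L lies between 6.46 and 6.90 on the siCtrl arrays and between 5.21 and 5.56 on the siBCL3 arrays, and TRIM22 is higher with TMZ and lower with siBCL3.

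The largest difference among the tested members was that of IFI44L, an antiviral gene that lies beside its paralog IFI44. Its brightest probe read 6.59, 6.62 and 6.46 in siCtrl/DMSO, 6.68, 6.72 and 6.90 in siCtrl/TMZ, 5.35, 5.43 and 5.34 in siBCL3/DMSO and 5.21, 5.56 and 5.39 in siBCL3/TMZ. That is a log2 difference of -1.18 (SE 0.09) under DMSO (adjusted p = 5.19e-07) and -1.38 (SE 0.09) under TMZ (adjusted p = 1.66e-07); the highest siBCL3 array read 5.56 and the lowest siCtrl array 6.46. IFI44 itself read 8.47, 8.57 and 8.42 in siCtrl/DMSO, 8.67, 8.59 and 8.61 in siCtrl/TMZ, 8.38, 8.28 and 8.26 in siBCL3/DMSO and 8.33, 8.42 and 8.43 in siBCL3/TMZ. It fell, with log2 differences of -0.18 (SE 0.06) and -0.23 (SE 0.06) (adjusted p = 0.0349 and 0.00885). The DMSO call of IFI44 was lost without siCtrl/DMSO replicate 1 (0.0643) or 2 (0.136), without siBCL3/DMSO replicate 2 (0.0976) or 3 (0.106), with median scaling (0.0676), from only the 6 arrays compared (0.0735) and with mean raw intensity as a covariate (0.564). IFI35, a leucine zipper protein that partners with NMI, read 7.60, 7.60 and 7.61 in siCtrl/DMSO, 7.68, 7.61 and 7.54 in siCtrl/TMZ, 7.31, 7.38 and 7.45 in siBCL3/DMSO and 7.34, 7.19 and 7.36 in siBCL3/TMZ. It fell, with log2 differences of -0.22 (SE 0.06) and -0.31 (SE 0.06) (adjusted p = 0.0145 and 0.002), and the first call was lost without siBCL3/DMSO replicate 1 (0.0556) and with the covariate (0.0657). IFI6, which limits virus replication at the endoplasmic reticulum (0.16, SE 0.08 and -0.12, SE 0.08), and XAF1, an antagonist of the apoptosis inhibitor XIAP (0.11, SE 0.16 and 0.14, SE 0.16), passed neither test.

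SP110, a nuclear body protein, read 7.57, 7.74 and 7.58 in siCtrl/DMSO, 7.87, 7.73 and 7.72 in siCtrl/TMZ, 7.18, 7.33 and 7.22 in siBCL3/DMSO and 7.25, 7.26 and 7.27 in siBCL3/TMZ. The siBCL3 arrays lay below the siCtrl arrays by -0.39 (SE 0.07) and -0.51 (SE 0.07) (adjusted p = 0.0005998 and 6.79e-05). PARP9, which forms an ADP-ribosylating complex with DTX3L, read 6.85, 6.88 and 6.64 in siCtrl/DMSO, 6.92, 7.06 and 6.88 in siCtrl/TMZ, 6.64, 6.41 and 6.60 in siBCL3/DMSO and 6.49, 6.66 and 6.77 in siBCL3/TMZ. It fell under TMZ (-0.31, SE 0.09, adjusted p = 0.0178), a call lost without siCtrl/TMZ replicate 2 (0.0752), without siBCL3/TMZ replicate 1 (0.08) and with probes averaged (0.0703). Under DMSO it was -0.24 (SE 0.09) (adjusted p = 0.052). The DMSO groups did not overlap but nearly touched, at 6.6436 for siCtrl/DMSO replicate 3 and 6.6416 for siBCL3/DMSO replicate 1. PARP14, a larger relative, differed by 0.05 (SE 0.07) and -0.02 (SE 0.07).

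Of the membrane proteins that block viruses at entry or release, 3 were tested. IFITM2 read 7.78, 7.83 and 7.90 in siCtrl/DMSO, 8.00, 8.00 and 8.00 in siCtrl/TMZ, 7.83, 7.86 and 7.67 in siBCL3/DMSO and 7.79, 7.74 and 7.74 in siBCL3/TMZ. It fell under TMZ (-0.24, SE 0.06, adjusted p = 0.00789) and differed by -0.05 (SE 0.06) under DMSO. IFITM3, which is nearly identical to IFITM2 over much of its coding sequence so that a probe could bind both transcripts, differed by 0.11 (SE 0.09) and 0.01 (SE 0.09) and passed neither. BST2, or tetherin, which holds budding viruses at the cell surface, read 4.65, 4.60 and 4.92 in siCtrl/DMSO, 4.66, 4.70 and 4.77 in siCtrl/TMZ, 4.55, 4.46 and 4.43 in siBCL3/DMSO and 4.55, 4.44 and 4.81 in siBCL3/TMZ. It was detected on 1 of 3 siCtrl/DMSO, 2 of 3 siCtrl/TMZ, 0 of 3 siBCL3/DMSO and 1 of 3 siBCL3/TMZ arrays. Its siBCL3/DMSO value is therefore not well above background. It passed the detection rule mainly through the siCtrl arrays, on which it is higher, so its fall is a description only. Its averaged difference was -0.18 (SE 0.07) (adjusted p = 0.047), a call lost under 18 of 27 alternatives. Among them were the fits without siCtrl/DMSO replicate 3 (0.116), any 1 siCtrl/TMZ array (0.0548, 0.0744 and 0.0956), siBCL3/DMSO replicate 2 (0.0796) or 3 (0.0906) or siBCL3/TMZ replicate 1 (0.0914) or 2 (0.112).

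The cytoplasmic sensors of viral RNA did not pass the test in any comparison. RIGI, which senses short triphosphorylated RNA, differed between siBCL3 and siCtrl by 0.06 (SE 0.09) under DMSO and 0.14 (SE 0.09) under TMZ, and IFIH1, which senses long double-stranded RNA, by 0.06 (SE 0.10) and 0.06 (SE 0.10). DDX60, a helicase that promotes sensing by both, had the lowest p-value of the 3, for TMZ against DMSO with siCtrl. It read 4.77, 5.18 and 4.90 in siCtrl/DMSO, 5.19, 5.17 and 5.26 in siCtrl/TMZ, 4.83, 5.16 and 5.10 in siBCL3/DMSO and 4.91, 5.05 and 5.21 in siBCL3/TMZ. The groups overlapped, and that difference was 0.26 (SE 0.11) (adjusted p = 0.296).

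6 members had a probe that missed the detection rule, so no value is given for them. MX1, a GTPase that blocks viral ribonucleoproteins, CMPK2, a mitochondrial nucleotide kinase, IFI27 and EPSTI1 were detected on 0 of 12 arrays. MX2, which blocks HIV at the nuclear pore, was detected on 2 arrays, both siCtrl/DMSO, and IFITM1 on 1. Raw intensities of the 6 probes ran from 81.9 to 110.2, where the lowest value of any probe was 72.8.

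Several members had more than 1 detected probe, and these gave unlike values; the difference between probes was not tested. For IFI44L the second, dimmer probe gave 0.03 under DMSO (adjusted p = 0.816) and -0.23 under TMZ (adjusted p = 0.0866), where the brightest gave -1.18 and -1.38. For IFIT3 the second probe gave -0.06 under DMSO and -0.29 under TMZ (adjusted p = 0.534 and 0.00831) and the third -0.03 and -0.08. For SP110 a second probe fell too, with -0.55 and -0.48 (adjusted p = 0.0005522 and 0.00156), while the third gave -0.15 and 0.13 and passed neither. The second probe of IFIT1 gave 0.02 and -0.07, that of PARP9 -0.17 and 0.01, that of OASL -0.20 and -0.23, and that of IFI6 0.16 and 0.05; none of these passed. Tested probe by probe, 12 of the 43 detected member probes fell under DMSO and 18 under TMZ. Of all 14270 detected probes with a name, 2765 fell under DMSO and 2692 under TMZ. Where in each transcript a probe lies is not given in the sources used here.

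**Figure D3:**
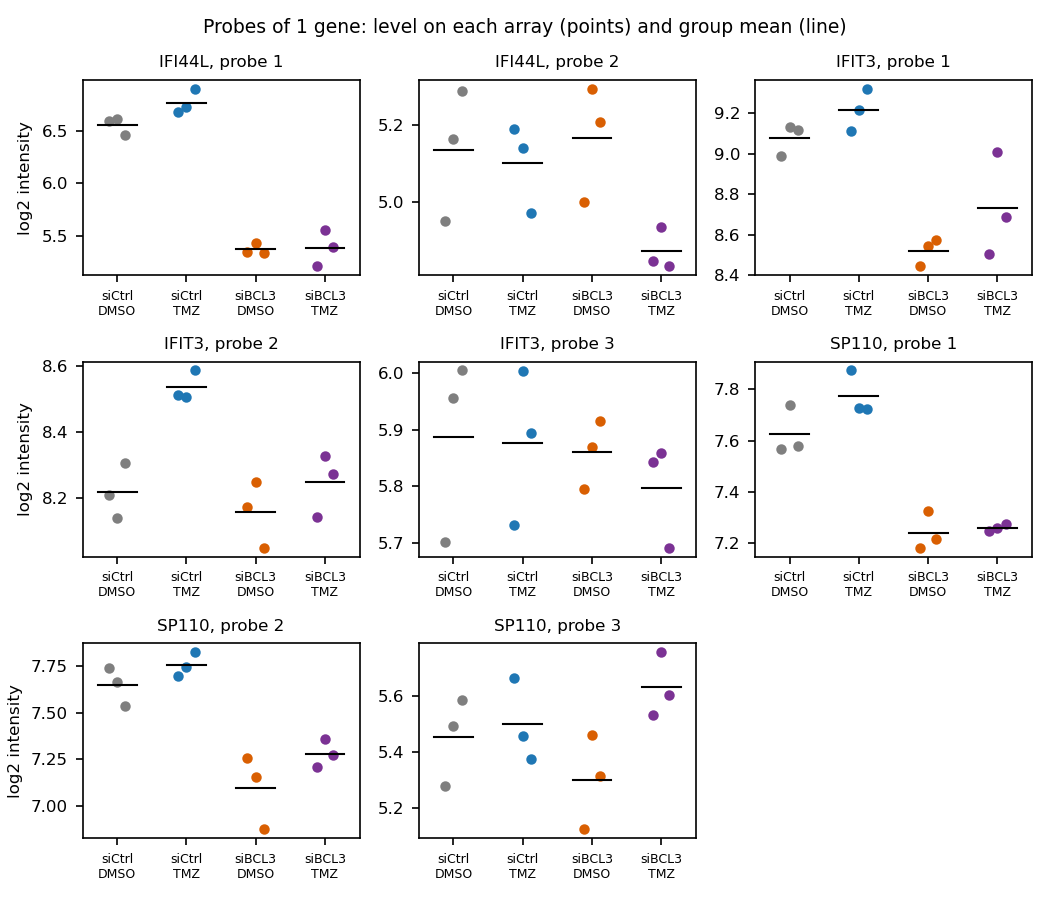
Log2 intensity on each array (points) and group means (lines) for the detected probes of IFI44L, IFIT3 and SP110, numbered from the brightest; vertical scales differ and do not start at 0. Both brighter SP110 probes are lower in the siBCL3 groups, whereas only the brightest IFI44L probe shows the large drop.

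TMZ against DMSO asks whether the drug itself moved these genes. With control siRNA 2 of 34 members rose, TRIM22 and HERC5, and 0 fell, where 0.468% of all genes rose and 0.393% fell. At an unadjusted limma p under 0.05, 12 members were higher and 0 lower, beside 949 higher and 683 lower of all 10686 genes. The median member difference was 0.13, against 0.011 over all genes; it was -0.0050 when arrays were scaled to the median of all probes, which moved the median of all genes to -0.11. TRIM22, whose array values are given above and which is also known as a target of p53, rose by 0.57 (SE 0.06) (adjusted p = 0.0004126), and every siCtrl/TMZ array lay above every siCtrl/DMSO array. This call was lost with that scaling (0.0655). HERC5 rose by 0.40 (SE 0.07) (adjusted p = 0.0218), again without overlap. The HERC5 call was lost without any 1 siCtrl/DMSO array (0.0754, 0.0568 and 0.0828), without siCtrl/TMZ replicate 1 (0.0937) or 2 (0.114), with mean raw intensity as a covariate (0.149) and with scaling to the median of all probes, where the difference was 0.26 (0.408). The next members by size were USP18 (0.30, SE 0.13), IFI6 (0.29, SE 0.08) and ISG15 (0.27, SE 0.07), with adjusted p-values of 0.287, 0.119 and 0.0966.

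With BCL3 siRNA 1 member rose with TMZ, TRIM22 again, and 0 fell, where 0.599% of all genes rose and 0.459% fell. TRIM22 rose by 0.54 (SE 0.06) (adjusted p = 0.0008317), from 7.02 to 7.14 under DMSO to 7.55 to 7.69 under TMZ. At an unadjusted limma p under 0.05, 3 members were higher and 1 lower, beside 853 higher and 759 lower of all 10686 genes. The member share that was higher is near that of all genes. The member median was 0.05, against 0.0019 over all genes. HERC5 was 0.22 (SE 0.07) here (adjusted p = 0.187), also without overlap, and ISG15 was 0.05 (SE 0.07). Each of these comparisons shares arrays with the siRNA comparisons.

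**Figure D4:**
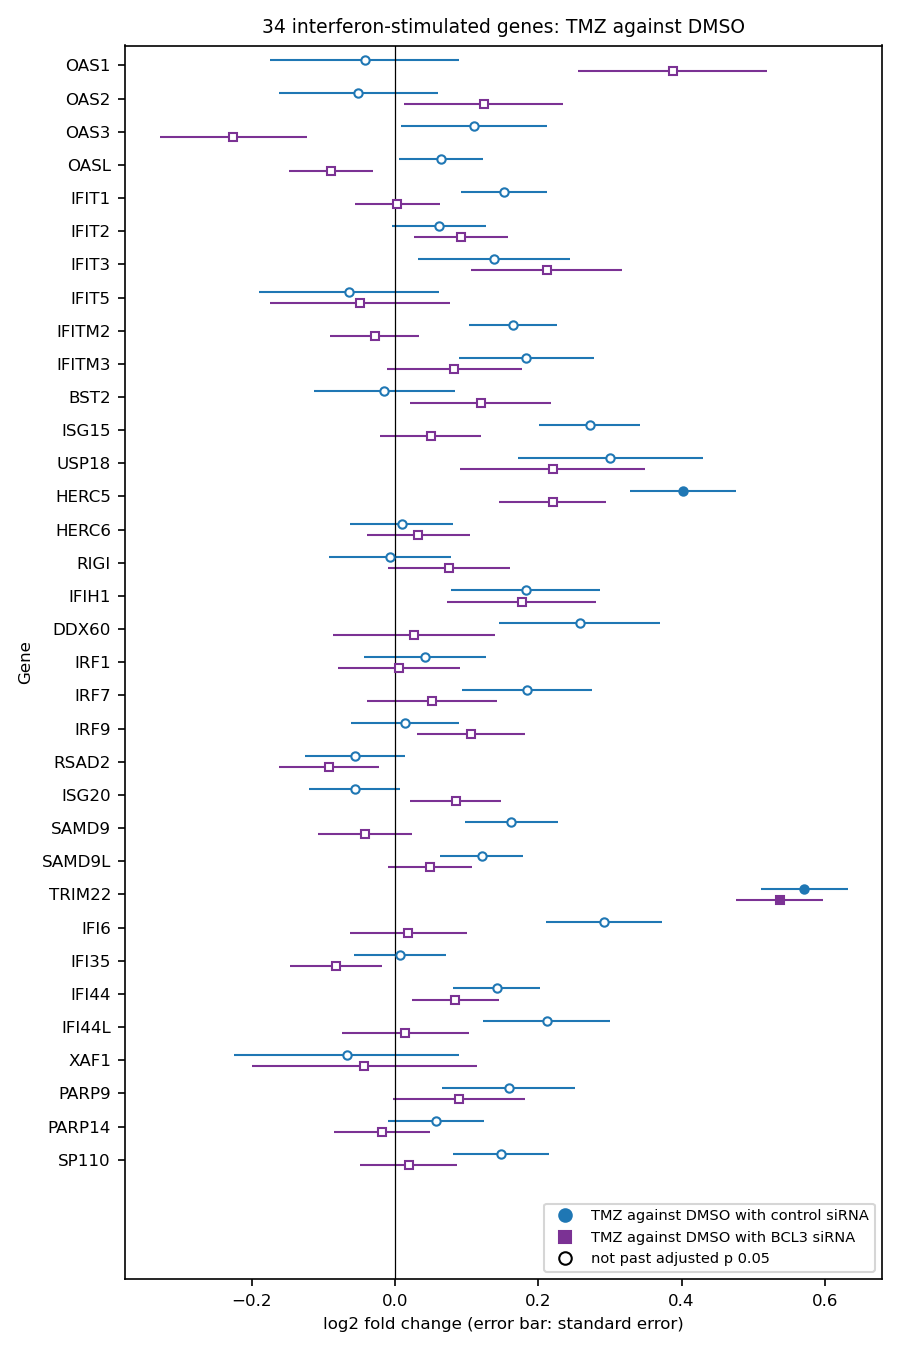
Log2 fold changes of the 34 members between TMZ and DMSO, with siCtrl (circles) and with siBCL3 (squares), each with its standard error; filled symbols passed an adjusted p of 0.05. Only TRIM22, in both, and HERC5, with siCtrl, are filled.

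The interaction asks whether the effect of BCL3 siRNA differed between TMZ and DMSO. In limma 0 members and 0 genes of the whole table passed in either direction (0% risen and 0% fallen). At an unadjusted limma p under 0.05 there were 1 member above 0 and 5 below, beside 298 and 420 of all 10686 genes. For the 5 members called under TMZ and not under DMSO, the interaction was -0.15 (SE 0.08) for OASL, -0.15 (SE 0.08) for IFIT1, -0.19 (SE 0.09) for IFITM2, -0.18 (SE 0.11) for HERC5 and -0.07 (SE 0.13) for PARP9. Their adjusted p-values ran from 0.733 to 0.951, so a difference between treatments was not shown for them. For OAS3 it was -0.34 (SE 0.15) and for OAS1 0.43 (SE 0.19) (both adjusted p = 0.733).

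The lists around the members held genes that rose and genes that fell with BCL3 siRNA. Their counts are to be read beside the 20.7% of all genes that rose and 20.1% that fell under DMSO, and the 18.6% and 20.2% under TMZ. None of 9 interferon genes looked for was detected by the rule: IFNB1, IFNA1, IFNA2, IFNE, IFNK, IFNG, IFNL2 and IFNL3 were on 0 arrays and IFNL1 on 1. Of 6 receptor chains 5 were tested; under DMSO 2 rose and 2 fell, and under TMZ 1 rose and 2 fell. Both chains of the type I interferon receptor fell. IFNAR1 read 7.13, 7.04 and 7.21 in siCtrl/DMSO, 7.24, 7.23 and 7.11 in siCtrl/TMZ, 6.72, 6.84 and 6.88 in siBCL3/DMSO and 6.62, 6.78 and 6.63 in siBCL3/TMZ. Its siBCL3 arrays were lower without overlap, by -0.31 (SE 0.07) and -0.52 (SE 0.07) (adjusted p = 0.00408 and 0.0001008). IFNAR2 read 7.49, 7.65 and 7.55 in siCtrl/DMSO, 7.64, 7.62 and 7.69 in siCtrl/TMZ, 7.25, 7.31 and 7.47 in siBCL3/DMSO and 7.25, 7.31 and 7.37 in siBCL3/TMZ. It fell, with log2 differences of -0.22 (SE 0.07) and -0.34 (SE 0.07) (adjusted p = 0.0213 and 0.00191). The DMSO call of IFNAR2 was lost without siCtrl/DMSO replicate 2 (0.0905) or siBCL3/DMSO replicate 1 (0.0841) or 2 (0.0662) with only the 6 arrays compared (0.0554) and with the covariate (0.359), and its TMZ call with probes averaged (0.064). IL10RB, the chain shared by the receptors of interferon-lambda and interleukin-10, read 9.35, 9.40 and 9.42 in siCtrl/DMSO, 9.75, 9.65 and 9.49 in siCtrl/TMZ, 9.89, 10.00 and 9.97 in siBCL3/DMSO and 10.06, 10.12 and 10.12 in siBCL3/TMZ. It rose by 0.57 (SE 0.07) and 0.47 (SE 0.07) (adjusted p = 3.16e-05 and 0.0001472). IFNGR1, a chain of the interferon-gamma receptor, rose under DMSO (0.27, SE 0.08, adjusted p = 0.0186; lost without siCtrl/DMSO replicate 1, 0.0638, or siBCL3/DMSO replicate 1, 0.0785, or with the covariate, 0.0596, and -0.08 with scaling to the median of all probes).

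4 Janus kinases and STATs were tested, and in each siRNA comparison 1 rose and 1 fell. JAK1, which serves all 3 kinds of interferon receptor, rose by 0.26 (SE 0.07) and 0.19 (SE 0.07) (adjusted p = 0.00824 and 0.0379). Its DMSO difference was -0.06 with scaling to the median of all probes, its DMSO call was lost with the covariate (0.118), and its TMZ call was lost without siCtrl/TMZ replicate 1 (0.167) or 2 (0.0507) or any 1 siBCL3/TMZ array (0.0557, 0.0891 and 0.0863), with cyclic loess (0.0716), no filter on dim probes (0.0571), only the 6 arrays compared (0.0767) and scaling to the median of all probes (0.422). TYK2, the kinase held by IFNAR1, differed by 0.11 (SE 0.08) and -0.03 (SE 0.08) and passed neither test. STAT3, which also carries the signal of interleukin-6 type cytokines, was -0.26 (SE 0.08) and -0.33 (SE 0.08) (adjusted p = 0.0205 and 0.00663). Among 7 tested negative regulators of the pathway, SOCS3, an inhibitor of Janus kinases, fell (-0.32, SE 0.08 and -0.29, SE 0.08, adjusted p = 0.00891 and 0.0148), a call lost in both when its probes were averaged (0.617 and 0.481) and under TMZ without siCtrl/TMZ replicate 3 (0.0713) or siBCL3/TMZ replicate 1 (0.0625) or with no background correction (0.0521), and under DMSO with the covariate (0.205).

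Of 14 genes that lead from nucleic acids to interferon 10 were tested; under DMSO 2 rose and 4 fell, and under TMZ 1 rose and 2 fell. TICAM1, the adaptor of TLR3, rose (0.53, SE 0.11 and 0.40, SE 0.11, adjusted p = 0.00179 and 0.0104); with scaling to the median of all probes it was 0.21 under DMSO (0.188), and its TMZ call was lost with probes averaged (0.0676). Of the kinases that activate IRF3, TBK1 rose under DMSO (0.30, SE 0.06, adjusted p = 0.00132, but -0.01 with scaling to the median of all probes) and IKBKE fell (-0.27, SE 0.06 and -0.25, SE 0.06, adjusted p = 0.00414 and 0.00628). IRF3, the factor that turns on IFNB1, fell too (-0.19, SE 0.06 and -0.25, SE 0.06, adjusted p = 0.0306 and 0.00787). The DMSO call of IRF3 was lost without siCtrl/DMSO replicate 1 (0.108) or 2 (0.0621) or siBCL3/DMSO replicate 1 (0.0884) or 2 (0.0808) and with the covariate (0.152), and its TMZ call with scaling to the median of all probes (0.0815). The DMSO call of STAT3 was lost without siCtrl/DMSO replicate 1 (0.0831) or siBCL3/DMSO replicate 1 (0.0582) or 2 (0.0727), and with the covariate, where the difference was -0.15 (0.382).

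A second list of 38 interferon-stimulated genes outside the members had 26 tested. Under DMSO 7 fell and 1 rose, and under TMZ 6 fell and 2 rose, with medians of -0.11 and -0.10; the counts stand beside the 20.1% and 20.2% of all genes that fell. TRIM5, which restricts retroviral capsids, read 7.28, 7.38 and 7.23 in siCtrl/DMSO, 7.37, 7.51 and 7.35 in siCtrl/TMZ, 5.95, 5.94 and 5.60 in siBCL3/DMSO and 5.73, 5.96 and 5.68 in siBCL3/TMZ. It fell, with log2 differences of -1.47 (SE 0.10) and -1.62 (SE 0.10) (adjusted p = 2.34e-07 and 1.14e-07). LY6E, a membrane-anchored protein that limits coronavirus fusion, fell, with log2 differences of -0.43 (SE 0.07) and -0.47 (SE 0.07) (adjusted p = 0.0004599 and 0.0002269). UBA7, the enzyme that activates ISG15 for transfer, fell under TMZ (-0.39, SE 0.08, adjusted p = 0.0018) and was -0.04 (SE 0.08) under DMSO. ZNFX1, a helicase-like sensor of viral RNA, rose by 0.52 (SE 0.06) and 0.54 (SE 0.06) (adjusted p = 4.07e-05 and 3.33e-05), the first being 0.21 (0.174) with scaling to the median of all probes.

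Of 22 interferon-gamma and antigen presentation genes 19 were tested; under DMSO 5 fell and 4 rose, and under TMZ 6 fell and 1 rose. Of the 3 catalytic subunits of the immunoproteasome, PSMB8 and PSMB9 fell in both comparisons, and PSMB10, named after its values were seen, differed by 0.07 (SE 0.07) and -0.06 (SE 0.07) and passed neither test. PSMB9, an immunoproteasome subunit, read 7.06, 6.94 and 7.03 in siCtrl/DMSO, 7.17, 7.14 and 6.93 in siCtrl/TMZ, 6.34, 6.32 and 6.40 in siBCL3/DMSO and 6.35, 6.47 and 6.44 in siBCL3/TMZ. It fell, with log2 differences of -0.66 (SE 0.07) and -0.66 (SE 0.07) (adjusted p = 1.35e-05 and 1.27e-05), and PSMB8, another such subunit, with -0.48 (SE 0.05) and -0.47 (SE 0.05) (adjusted p = 9.84e-06 and 1.20e-05). PSME2, a subunit of the proteasome activator, fell, with log2 differences of -0.48 (SE 0.07) and -0.38 (SE 0.07) (adjusted p = 9.61e-05 and 0.0005869), and CIITA, the activator of MHC class II genes, with -0.44 (SE 0.10) and -0.55 (SE 0.10) (adjusted p = 0.00434 and 0.0009326). CIITA was dim, with group means of 4.98 in siCtrl/DMSO, 5.02 in siCtrl/TMZ, 4.54 in siBCL3/DMSO and 4.47 in siBCL3/TMZ. BST2 had a mean of 4.48 in siBCL3/DMSO, where it was detected on 0 of 3 arrays, so the siBCL3 values of CIITA may lie near background. On which arrays CIITA was detected is not reported here. Its fall, which is in the counts of fallen genes above, is therefore a description only. The DMSO difference of CIITA was -0.18 (0.217) with median scaling over detected probes, and its call was lost with the covariate (0.053). The TMZ call of PSME2 was lost with scaling to the median of all probes (0.0544).

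**Figure D5:**
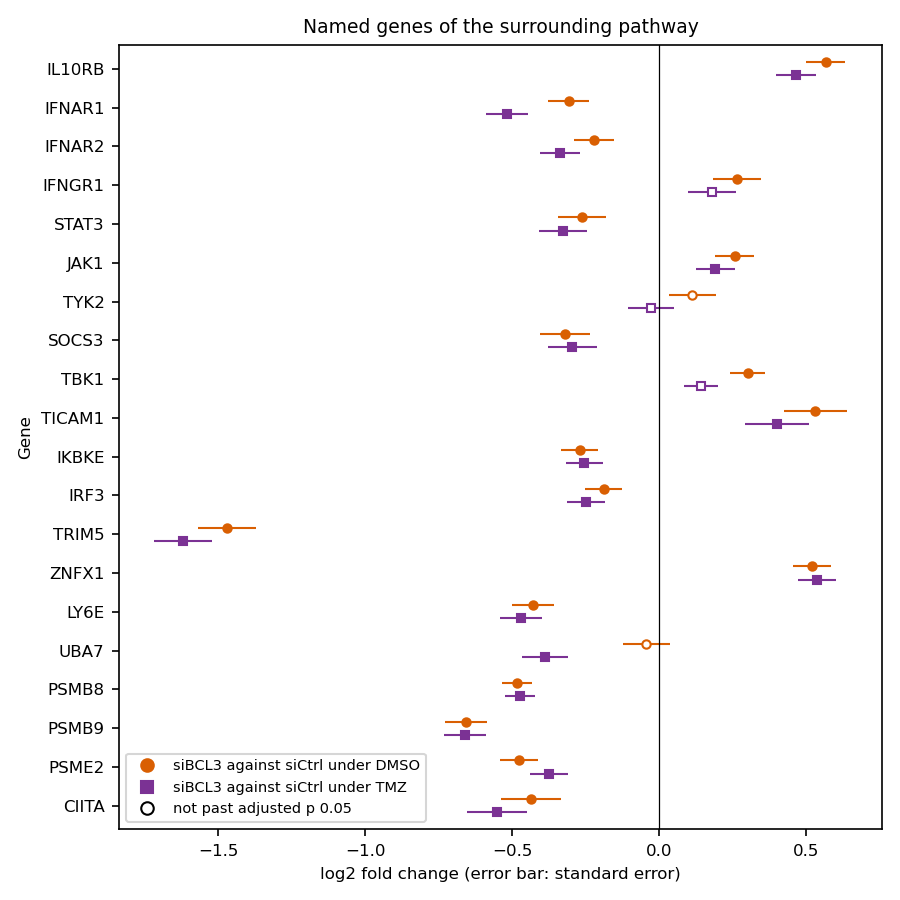
Log2 fold changes between siBCL3 and siCtrl, with standard errors, for the named genes around the members, from receptor chains at the top to antigen presentation at the bottom; filled symbols passed an adjusted p of 0.05. IFNAR1 and IFNAR2 lie below 0 and IL10RB above it, and TRIM5 lies furthest out, at -1.47 and -1.62.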

How the data were processed

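Probe intensities were deposited by the authors for 47320 probes on a linear scale, without normalization as far as the values show; the deposited table ran from 72.8 to 20797.5. The detection p-values beside them carry no sample name in the file headers, and each column was assigned to the intensity column it fell with most strongly (weakest Spearman correlation -0.979). The sources used here do not give the scanning and normalization software. RNA preparation, per the labels' protocols, used Trizol, a column with DNase and Ambion amplification to biotinylated cRNA.

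Intensities were background-corrected with neqc of limma 3.58.1 (R 4.3.3; offset 16), quantile-normalized and taken to log2. Probes detected on at least 3 of 12 arrays were kept (18105). Names came from the GEO platform annotation, updated through Entrez identifiers: 30112 probes had 1 symbol, 8 several and 17200 none. The brightest kept probe stood for each gene, giving 10686 genes. With lmFit and eBayes of limma, the 4 group means were estimated from all 12 arrays together, leaving 8 residual degrees of freedom, for 6 comparisons. P-values were 2-sided. Fold changes are on the offset scale, which understates changes of dim probes. Only the limma fit and its adjustment were tested on simulated log2 values, with far fewer changed genes than BCL3 siRNA gave here. Background correction, normalization, the detection filter and the choice of probe were not simulated.

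The members, the lists around them and the tests were chosen with earlier results of these data known. Text values cover BCL3, every member, JAK1, TYK2, IRF3 and IFNAR1 and IFNAR2, and per surrounding list up to 4 called genes with the lowest p. Replicate numbers did not clearly pair samples (4 of 18 same-number correlations over 0.1), though 3 arrays per group are too few to exclude a pairing. Alternatives were other background corrections, scalings, filters and probe rules, the authors' normalized intensities, moderation and weights, a fold minimum, a covariate, and each array left out. Precision is limited by 3 arrays per group. Some genes of the surrounding lists are not reported here.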

Additional observations from a re-analysis of the deposited data

How the results depend on the processing

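Under DMSO the 11 fallen members became 13 with normexp and an offset of 50, no background correction, an offset of 50 and cyclic loess. There 2226 to 2329 of all 10686 genes fell. The fallen members became 9 with median scaling and 8 with mean raw intensity as a covariate, where 1673 and 1282 genes fell. The 1 member that rose became 0 with normexp and an offset of 50, no background correction, an offset of 50, no filter on dim probes, a detection p under 0.05, trend and robust moderation, array weights, a minimum of 1.2-fold and mean raw intensity as a covariate, and 2 with median scaling. With median scaling over all probes, an alternative chosen after seeing the data, it was 0 and 21 members fell in place of 11; IRF7 (-0.037), ISG20 (-0.3203), IFNGR1 (-0.0839), JAK1 (-0.0646) and TBK1 (-0.0144) turned below 0, as the median of all genes moved to -0.26. Under TMZ 1 member in place of 0 rose with detection on all 12 arrays, with probes averaged and with the replicate block. Averaged over treatments, 2 in place of 1 rose with normexp, median scaling, an offset of 50, trend and robust moderation and array weights, and 0 with median scaling over all probes, no filter and the 1.2-fold minimum. That minimum left 2 fallen members under DMSO, 5 under TMZ and 8 averaged, beside 526, 581 and 753 of all 10686 genes. It left 0 risen members for TMZ with either siRNA. For TMZ with control siRNA 4 in place of 2 rose with normexp, no background correction, an offset of 50, trend and robust moderation and array weights, 0 with median scaling over all probes and 1 with the covariate. Where not stated, the cause was not tested.

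Leaving out 1 array at a time gave 0 to 1 risen and 10 to 13 fallen members under DMSO, 0 to 1 and 15 to 16 under TMZ, 0 to 3 and 16 to 18 averaged, and 1 to 3 risen for TMZ with control siRNA; with BCL3 siRNA it was 1 throughout. With the replicate block 11 members fell under DMSO and 16 under TMZ; under DMSO they were not the same genes, since IFI44 was lost (adjusted p = 0.0527). Replicate numbers did not clearly pair the arrays: same-number correlations ran from -0.155 to 0.186, and 7 of 18 correlated best with their own number. With so few arrays per group this cannot exclude a pairing. With the authors' normalized intensities the counts of fallen members were 11 and 16. Called members lost their call in 39 gene-by-alternative fits under DMSO, turned sign and lost it in 1 (IRF7) and kept it in 307; under TMZ these were 18 and 445. OAS1, OAS2, USP18, DDX60 and BST2 were detected on some arrays only, so their values lie near background.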
